A study of Mus musculus with 2 samples.

Results

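The calcitonin peptide family and its receptors were followed through single-cell RNA-seq of 2 mouse small cell lung cancer tumors. The members were taken by name, with earlier results of these data known. They were 3 peptide genes (Calca, Calcb and Iapp), 2 receptor genes (Calcrl and Calcr) and 3 receptor activity-modifying protein genes (Ramp1, Ramp2 and Ramp3). These were 8 of the 27998 genes listed for both tumors. All 8 were matched by symbol. Of the 8, 6 had a UMI in the retained barcodes of TKO1 and 7 in those of TKO2. Calca encodes both calcitonin and, by alternative splicing, the alpha form of calcitonin gene-related peptide (CGRP), Calcb encodes the beta form of CGRP, and Iapp encodes amylin. The peptides act through G protein-coupled receptors whose ligand choice is set by an accessory protein: Calcrl with Ramp1 binds CGRP, Calcrl with Ramp2 or Ramp3 binds adrenomedullin, and Calcr binds calcitonin alone or amylin when it is paired with a Ramp protein. In the normal lung CGRP is a classical product of pulmonary neuroendocrine cells, and Calcrl and Ramp2 are typical of the vascular endothelium.

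The tumors came from the triple-knockout (TKO) model, with the genotype Rb-/-; Trp53-/-; Rbl2-/- and a Rosa26 reporter for membrane-Tomato or membrane-GFP, in mice of mixed C57BL/6, 129/SVJ and 129/SvOla background. The deletions and the reporter were shared by both tumors, and no untreated lung was among the samples. Tumors were started in the lung with an adenovirus carrying Cre under the CMV promoter, which is not limited to one cell type, and 1 tumor was taken from each of 2 mice 7 months later, at an age of 8 to 9 months. DAPI-negative live cells were sorted and captured on the 10x Chromium system. The paper names no lineage marker for this sort and refers to earlier work for its method. The libraries are called TKO1 and TKO2 here after their tumors. Each tumor gave 1 library, so no difference between them has a replicate check, no p-value is given, and every interval is a 95% interval for counting error only.

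Of 4514 barcodes in TKO1 and 3816 in TKO2, 3193 and 3568 had more than 500 detected genes and were retained, with medians of 1223 and 1960 unique molecular identifiers (UMIs). Clusters were formed in each library without the 8 members and named from marker lists. In TKO1, 2990 cells in 7 clusters were neuroendocrine-like, 106 were club-like and 97 macrophage-like, and in TKO2 3382 cells in 8 clusters were neuroendocrine-like, 122 were macrophage-like and 64 formed a cluster left unnamed because it held 6 club, 5 ciliated and 11 neuroendocrine markers together. The club-like cluster of TKO1 also held 5 alveolar type 2 markers. Between 8 and 12 of the 14 neuroendocrine markers set the neuroendocrine-like clusters apart from macrophage-like cells. Levels are given as CPM, the UMIs of a gene as a share of all UMIs of the summed cells, scaled so that 16950 CPM is 1.70%. The libraries shared 22 barcode sequences, of which 11 were retained in both.

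Calca was the most abundant transcript of the TKO1 tumor cells. It accounted for 71622 UMIs in the neuroendocrine-like cells, 16950 CPM (16830 to 17070), ahead of H3f3b, a histone gene, at 10410 CPM and Cd9, a membrane tetraspanin gene, at 6888 CPM. CPM here is a share of UMIs and was not scaled by transcript length. In TKO2 the same class held 145 Calca UMIs, 18.7 CPM (15.8 to 22.0), and stood at rank 5612 of the genes. The level was 907-fold higher in TKO1 (771 to 1075), a log2 ratio of 9.83 (9.59 to 10.07). It was 7.71 over all retained barcodes, and 10.31 without the TKO2 barcodes that held at least 3 Calca UMIs. The median gene was itself 0.37 higher in TKO1 on this scale, so that Calca lay 9.46 above it. The counts are per gene and do not separate calcitonin from CGRP transcripts.

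Among the 12925 genes with at least 10 UMIs over both groups of neuroendocrine-like cells, 14.5% were at least 4-fold higher in TKO1 and 4.82% at least 4-fold higher in TKO2. Of the 6 members with that many UMIs, 3 were past 4-fold toward TKO1 (Calca, Calcb and Ramp1), 2 toward TKO2 (Ramp2 and Ramp3), and Iapp was within it. The log2 ratios of these 6 members ran from -4.35 (Ramp2, with 3 UMIs set for its 0) to 9.83 (Calca). Their median of 2.95 fell in the gap between Iapp at 1.71 and Calcb at 4.20, so it describes no member. The median over all 12925 genes was 0.37. Calcb, Ramp1, Ramp2 and Ramp3 reached 10 UMIs only through the tumor in which they were higher. Calcr and Calcrl were below the 10 UMIs. With TMM scaling the shares of all genes past 4-fold became 11.2% and 6.48%.

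Calca was spread over nearly every tumor cell of TKO1. Cells held a median of 18 Calca UMIs, from 0 in 83 cells to 156 in the highest, and 2720 of 2990 cells (91.0%) held at least 3. After each cell was thinned to 1000 UMIs, which left out 840 shallower cells, 2074 of 2150 (96.5%, exact Clopper-Pearson interval 95.6 to 97.2) still held a Calca UMI, against 97.2% of all 2990 cells before thinning. The cell-to-cell spread was wide. The thinned counts had a mean of 17.6 and a Fano factor (variance over mean) of 11.5, against a median of 1.18 over 3533 genes, and among those genes only Scgb1a1, a club cell secretory protein gene, at 21.1, was higher. The Fano factor tends to rise with the mean, and the genes compared had means from 0.05 upward. The rank is therefore not one of spread relative to level. The next gene, Rpl11, had 6.38 at a mean of 3.42. The middle 80% of thinned cells ran from 2 to 37 Calca UMIs.

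**Figure D1:**
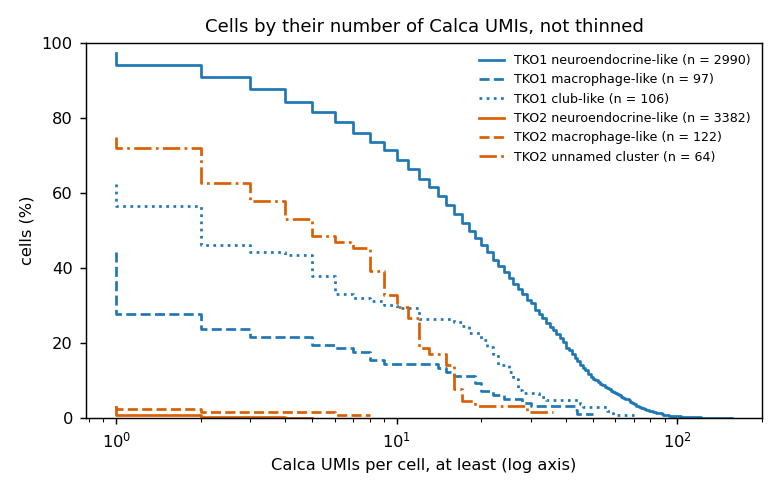
Share of cells (y axis, percent) that held at least the number of Calca UMIs on the x axis (log axis, read at the top of each step), without thinning, for each cell class of TKO1 (blue) and TKO2 (orange). The TKO1 neuroendocrine-like curve starts at 97.2% and reaches 156 UMIs, while the TKO2 neuroendocrine-like curve starts at 2.87% and ends at 5 UMIs.

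The level of Calca differed by 4.01-fold between TKO1 clusters. It was highest in cluster 3, at 24220 CPM, and lay between 15850 and 21790 CPM in clusters 0, 1, 2 and 4. In cluster 5, led by mitosis genes such as Plk1, Ube2c and Kif20a, it was 6035 CPM, a log2 ratio of -1.64 (-1.69 to -1.59) to the other neuroendocrine-like clusters. In cluster 6, led by the neurofilament genes Nefm and Nefl and by Neurog3, an endocrine lineage factor, it was 6417 CPM, a log2 ratio of -1.48 (-1.54 to -1.42). These were the only clusters of TKO1 in which fewer than 90% of the thinned neuroendocrine-like cells held the transcript, 86.2% in cluster 5 and 82.8% in cluster 6. Their median depths were 1732 and 1335 UMIs, against 1043 to 1635 in the other 5 clusters.

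**Figure D2:**
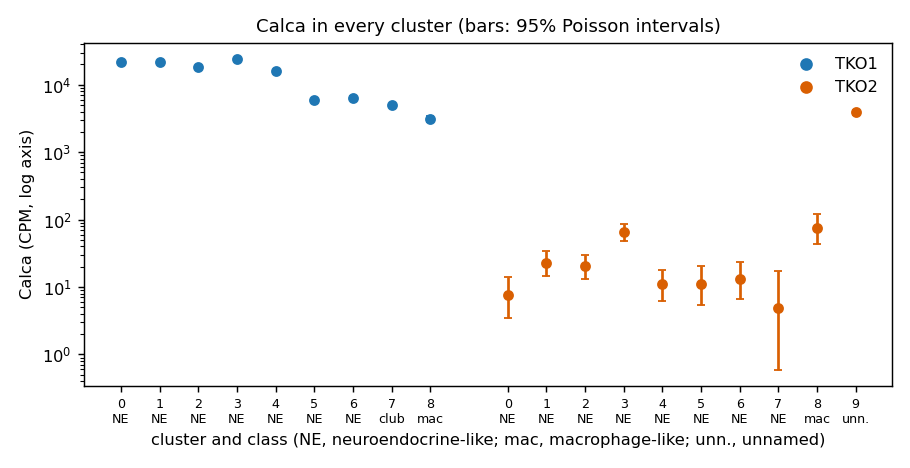
Calca level (CPM, log axis) in every cluster of TKO1 (blue) and TKO2 (orange), with the class of the cluster under its number and 95% Poisson intervals as bars. The 7 neuroendocrine-like clusters of TKO1 lie between 6035 and 24220 CPM and the 8 of TKO2 between 4.85 and 64.8 CPM.

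Over the 2150 thinned TKO1 cells, the genes whose counts followed Calca most closely were Nov, a secreted matricellular protein gene, with a Pearson r of 0.27, the immediate-early factor Junb (0.27), Resp18, a secretory granule gene (0.26), the immediate-early factor Fos (0.22) and Pcsk1n, which encodes a proprotein convertase inhibitor (0.21). The most opposed were Ptma (-0.34) and Hmgb2 (-0.27), chromatin genes that are abundant in dividing cells. These correlations across cells of 1 library, among 3532 genes, are a description and the cells share depth and cluster structure. In TKO2 the 5 highest (Nov, Tmx1, Ppp1r11, Chga and Atp5e) lay between 0.08 and 0.12 over 3020 cells, where Calca was too sparse for an order to be read.

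Cells of other classes in TKO1 also held Calca. The macrophage-like cells had 442 UMIs, 3123 CPM or 18.4% of the neuroendocrine-like level, and the club-like cells 985 UMIs, 4940 CPM or 29.1%. The Calca of macrophage-like cells was uneven, with 54 of 97 cells at 0, 14 at 10 or more, and the top 10% of cells holding 67.9% of the UMIs. After thinning, 34.6% of 81 macrophage-like cells held the transcript (24.3 to 46.0), below the 96.5% of neuroendocrine-like cells. The part of free RNA and of doublets in these counts was not tested.

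In TKO2 the tumor cells were almost without Calca. Of 3382 neuroendocrine-like cells, 3285 held none, 69 held 1 UMI, 17 held 2, 11 held 3 or more, and the highest held 5. After thinning, 39 of 3020 cells (1.29%, 0.920 to 1.76) held a UMI, while 3 of 113 macrophage-like cells did (2.65%, 0.551 to 7.56). The tumor cell share was no higher than that in cells that should lack the gene, at median depths of 1983 and 1654 UMIs, and was read as background. The highest cluster was cluster 3, with 49 of the 145 UMIs and 64.8 CPM, a log2 ratio of 2.24 (1.71 to 2.75) to the other neuroendocrine-like clusters.

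A small set of TKO2 barcodes did hold Calca. At least 3 Calca UMIs, the value that chose them, were found in 53 of 3568 retained barcodes. They held 500 UMIs, 5133 CPM, with a median of 8 and a highest of 36, and 8 of them stood at exactly 3. Just outside that limit, 17 neuroendocrine-like, 1 macrophage-like and 6 unnamed barcodes held 2 UMIs. By cluster, 40 of the 53 lay in the unnamed cluster, where they made up 62.5% of its 64 cells, 11 were neuroendocrine-like and 2 were macrophage-like. Clustering had not used Calca. Of the 53 barcode sequences, 1 (1.89%) also occurred in TKO1, against 20 of the other 3515 (0.569%). That 1 was among the 11 neuroendocrine-like barcodes, while 0 of the 40 in the unnamed cluster were shared. A single shared barcode is too few for the shares to be compared.

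The other genes of these 53 barcodes were not used to choose them. Calcb and Iapp had 0 UMIs, or 30.8 CPM each when 3 UMIs are set for the 0. Ramp1 had 4 UMIs in 2 barcodes. Pcsk1, the prohormone convertase that cuts peptide precursors, was at 216 CPM (134 to 330, 21 UMIs), against 8.27 CPM (6.37 to 10.6) in the other 3371 neuroendocrine-like cells. Pam, the enzyme that amidates peptides such as CGRP and amylin, was at 61.6 CPM (22.6 to 134, 6 UMIs) against 18.2 (15.3 to 21.5). Both genes were set only against neuroendocrine-like cells, although 40 of the 53 barcodes lay in the unnamed cluster. These values therefore do not tell a trait of the set from a trait of that cluster. Mycn, a transcription factor gene found in 2913 of the other 3371 neuroendocrine-like cells (86.4%), was found in 19 (35.8%). Wfdc2, an epithelial secretory protein gene found in 3 of those 3371 cells, was found in 29 of the 53, and it was at 510 CPM in the neuroendocrine-like and 817 CPM in the club-like cells of TKO1. The set was not uniform. Mycn was found in 10 of the 11 neuroendocrine-like barcodes and in 9 of the 40 in the unnamed cluster, while Wfdc2 was found in 0 of the 11 and in 28 of the 40. In the 24 cells of the unnamed cluster outside the set, Wfdc2 was found in 14. Whether these barcodes were cells of the TKO2 tumor, airway cells or cells carried over from TKO1 was not tested, and the Y-linked gene Eif2s3y, present in both tumors at 96.6 and 42.8 CPM in their neuroendocrine-like cells, does not tell the libraries apart. The 53 were shallower, with a median of 1213 UMIs against 1983, and 5 of them held Scgb1a1.

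Calcb was rare, and most of its UMIs came from 1 cluster. In TKO1 it had 20 UMIs in 15 cells, 4.73 CPM (2.89 to 7.31), and in TKO2 2 UMIs in 2 cells, a ratio of 18.4 (4.46 to 162). Of the 20 UMIs, 15 were in cluster 3, at 31.1 CPM against 1.34 CPM in the other clusters together, a log2 ratio of 4.54 (3.01 to 6.36). Cluster 3 was also the cluster with the highest Calca, and its leading genes included Edn3, the endothelin-3 gene, and Rgs4, a regulator of G protein signalling. The genes for CGRP alpha and beta neighbour each other on chromosome 7 and are related in sequence. Their annotated transcripts share an exact run of up to 61 bases, though of at most 13 within the last 300 bases. Whether counts were exchanged between them was not tested, and the Calcb values are uncertain for this reason. Clusters 0, 1 and 2 held 13678, 13944 and 16982 Calca UMIs with 1, 0 and 4 of Calcb. Cluster 3 held 11678 of Calca with 15 of Calcb. The part of such an exchange in the level of cluster 3 was not tested.

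Iapp was highest in another TKO1 cluster than Calca. It had 187 UMIs in 104 neuroendocrine-like cells, 44.3 CPM (38.1 to 51.1), of which 104 UMIs (55.6%) fell in cluster 6, where Calca was low. The Iapp level in cluster 6 was 307 CPM (251 to 372), found in 51 of 228 cells, against 21.4 CPM in the other clusters, a log2 ratio of 3.85 (3.42 to 4.28). Clusters 3 and 5 followed with 72.6 and 39.1 CPM, and clusters 0, 1, 2 and 4 lay between 6.25 and 14.1 CPM. In the 50 thinned cells that held Iapp, the median Calca count was 7, against 15 in the 2100 cells that did not. This contrast was not made within clusters. In cluster 6, thinned by itself, 30 of 169 cells held Iapp and the median Calca count of the cluster was 3.

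In TKO2, Iapp had 105 UMIs in 85 neuroendocrine-like cells, 13.5 CPM (11.1 to 16.4). The ratio between the tumors was 3.27 (2.56 to 4.19), and the log2 ratio of 1.71 fell to 0.66 (0.23 to 1.09) when cluster 6 of TKO1 was left out, an alternative chosen after the values were seen. The highest TKO2 clusters were cluster 7, led by mitosis genes such as Cenpf and Aspm, at 41.2 CPM (24.0 to 66.0), and cluster 3 at 37.0 CPM (24.6 to 53.5). A further 16 Iapp UMIs came from 1 barcode of the unnamed cluster, which held 1653 UMIs in all and 2 of Calca. The macrophage-like cells of both tumors and the club-like cells of TKO1 held no Iapp, and none of the macrophage-like cells held Calcb.

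**Figure D3:**
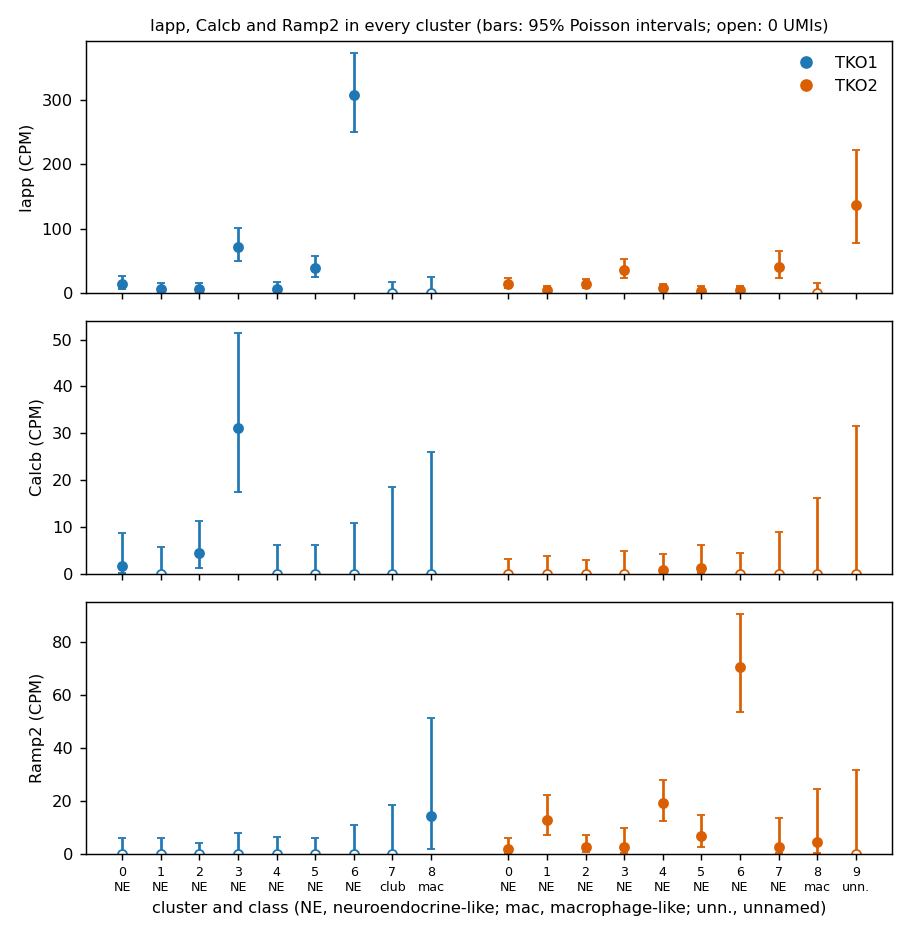
Iapp, Calcb and Ramp2 levels (CPM, linear axes from 0) in every cluster of TKO1 (blue) and TKO2 (orange), with 95% Poisson intervals as bars and open points for 0 UMIs. Iapp stands out in TKO1 cluster 6 (307 CPM), while all 16 UMIs of the TKO2 cluster 9 point came from 1 barcode. Calcb stands out in TKO1 cluster 3 (31.1 CPM) and Ramp2 in TKO2 cluster 6 (70.3 CPM).

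Promoter sequences are shown for Calca, Ramp1 and Ramp3, which were past 4-fold between the tumors, and for Iapp, which was not, so that they can be read beside the levels. The RefSeq promoter table (GRCm38.p6), with 250 bases before and 50 after each start, held 6 of the 8 members, without Calcb and Ramp2. Of these, Calca (chr7:114636308-114636607, minus strand) and Ramp1 (chr1:91179572-91179871, plus strand) were higher in TKO1, Ramp3 (chr11:6658283-6658582, plus strand) was higher in TKO2, and Iapp (chr6:142298175-142298474, plus strand) stayed within 4-fold. Capitals mark CAGCTG, an E-box (the motif of basic helix-loop-helix factors), and TGACG or its reverse complement CGTCA, the core of the cAMP response element. The sequences run 5′ to 3′ in the direction of the gene.
Calca: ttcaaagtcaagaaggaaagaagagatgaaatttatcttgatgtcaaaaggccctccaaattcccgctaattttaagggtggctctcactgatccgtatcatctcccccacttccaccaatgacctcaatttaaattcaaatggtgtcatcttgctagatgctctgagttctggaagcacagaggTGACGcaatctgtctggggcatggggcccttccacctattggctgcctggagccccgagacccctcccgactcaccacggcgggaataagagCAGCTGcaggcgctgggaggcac
Ramp1: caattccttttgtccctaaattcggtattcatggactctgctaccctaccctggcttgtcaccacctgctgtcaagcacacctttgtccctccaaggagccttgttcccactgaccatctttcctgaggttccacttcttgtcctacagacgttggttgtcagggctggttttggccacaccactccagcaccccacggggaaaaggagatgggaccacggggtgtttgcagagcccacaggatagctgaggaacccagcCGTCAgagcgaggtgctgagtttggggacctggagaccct
Iapp: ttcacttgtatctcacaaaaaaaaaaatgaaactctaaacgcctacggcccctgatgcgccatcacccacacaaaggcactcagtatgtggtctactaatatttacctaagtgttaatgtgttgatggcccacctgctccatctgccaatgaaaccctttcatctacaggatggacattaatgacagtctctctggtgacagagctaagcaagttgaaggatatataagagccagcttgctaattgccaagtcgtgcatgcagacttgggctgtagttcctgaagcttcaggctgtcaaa
Ramp3: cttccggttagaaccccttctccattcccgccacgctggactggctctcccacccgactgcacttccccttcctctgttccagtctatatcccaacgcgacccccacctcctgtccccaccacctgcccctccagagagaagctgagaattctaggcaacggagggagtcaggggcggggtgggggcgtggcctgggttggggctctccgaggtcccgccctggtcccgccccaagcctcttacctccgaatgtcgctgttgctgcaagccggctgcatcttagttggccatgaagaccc
Calca held 1 CAGCTG, at position 28 after the start, and 1 TGACG, at -65. Ramp1 held 1 CGTCA at position 11. Iapp and Ramp3 held neither of these letter runs in this window. Of 32851 promoters in the table, 16.3% held CAGCTG and 20.8% held TGACG on either strand, so that these matches are common and are given as a description only.

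The receptors for these peptides were close to absent. Calcrl (chromosome 2, 84330626 to 84425411) had 0 UMIs in all 8330 barcodes of both libraries, retained or not, and Calcr had 0 in TKO1 and 2 UMIs in 2 neuroendocrine-like cells of TKO2. For the neuroendocrine-like cells of TKO1, the exact interval of 0 Calcrl UMIs reaches 0.873 CPM, and for the macrophage-like cells 26.1 CPM. No barcode held a UMI of a receptor gene and of a Ramp gene together, and no retained barcode held UMIs of 2 different Ramp genes. Receptor gene UMIs occurred in only 2 barcodes, both of TKO2. In that library Ramp1, Ramp2 and Ramp3 occurred in 23, 88 and 34 of 3568 retained barcodes. With counts this low few joint barcodes could be met, so neither absence can be read as exclusion. A Ramp UMI was found in 126 retained barcodes of TKO1 and 145 of TKO2.

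The cells in which Calcrl and Ramp2 would be looked for were themselves scarcely present. Of the 9 endothelial markers, Cdh5 and Emcn were at 0 in both libraries, Pecam1 had 10 and 9 UMIs, and 7 markers had fewer than 10 UMIs in each library. Vwf (2480 and 1533 UMIs) and, in TKO2, Egfl7 (602 UMIs) were high, but 1 barcode of TKO1 and none of TKO2 held 3 or more different endothelial markers. Pericyte or smooth muscle markers were all under 10 UMIs in both libraries. The summed counts therefore give no receptor level for vascular cells.

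Ramp1, the partner that makes Calcrl a CGRP receptor, was higher per UMI in macrophage-like than in neuroendocrine-like cells of both tumors. The club-like cells of TKO1 were also above its neuroendocrine-like cells. In TKO1 it was at 219 CPM (149 to 311, 31 UMIs) in macrophage-like cells and 191 CPM (135 to 262, 38 UMIs) in club-like cells, 2 values that do not differ beyond counting error, and at 21.8 CPM (17.6 to 26.7, 92 UMIs) in neuroendocrine-like cells. In TKO2 it was at 65.8 CPM (36.8 to 109, 15 UMIs) in macrophage-like cells, at 76.8 CPM (35.1 to 146, 9 UMIs) in the unnamed cluster and at 0.129 CPM in neuroendocrine-like cells, from 1 UMI. The share of thinned macrophage-like cells with a Ramp1 UMI was 17.3% (9.78 to 27.3) in TKO1 and 9.73% (4.96 to 16.8) in TKO2, against 2.33% (1.73 to 3.06) and 0% (up to 0.122) in neuroendocrine-like cells. Of the 38 Ramp1 UMIs in the club-like cluster, 13 came from its 7 barcodes with 3 or more alveolar type 2 markers, at 796 CPM (424 to 1361), and without these the cluster was at 137 CPM (88.4 to 202), a split chosen after the values were seen. Both libraries ranked macrophage-like above neuroendocrine-like cells for this gene.

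Within the macrophage-like cells of TKO1, 24 of the 31 Ramp1 UMIs were in barcodes without Calca. The 54 macrophage-like barcodes of TKO1 without a Calca UMI held 24 Ramp1 UMIs, 312 CPM (200 to 465), together with 1916 UMIs of Lyz2, the lysozyme gene of macrophages. The 14 with at least 10 Calca UMIs held 0 Ramp1 UMIs, an exact interval that reaches 154 CPM, with 118 Lyz2 UMIs. Over all 43 with a Calca UMI, Ramp1 was at 108 CPM (43.5 to 223, 7 UMIs), an interval that overlaps that of the 54. In the club-like cells Ramp1 was at 254 CPM (148 to 407) in the 40 barcodes without Calca and at 171 CPM (88.5 to 299) in the 32 with at least 10 Calca UMIs, where the intervals overlap.

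Within the neuroendocrine-like cells, Ramp1 was higher in TKO1, with 92 UMIs in 84 cells against 1 UMI in TKO2, a ratio of 169 (29.6 to 6745) and a log2 ratio of 7.40 (4.89 to 12.7). It lay between 8.85 CPM (cluster 6) and 29.4 CPM (cluster 2) in the 7 TKO1 clusters, and for each cluster the interval of its ratio to the others held 0. Cells with and without Ramp1 had similar Calca, with thinned medians of 16 and 14. When all retained barcodes were summed in place of the neuroendocrine-like cells the log2 ratio was 3.52, since the TKO2 UMIs then came from the other classes.

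**Figure D4:**
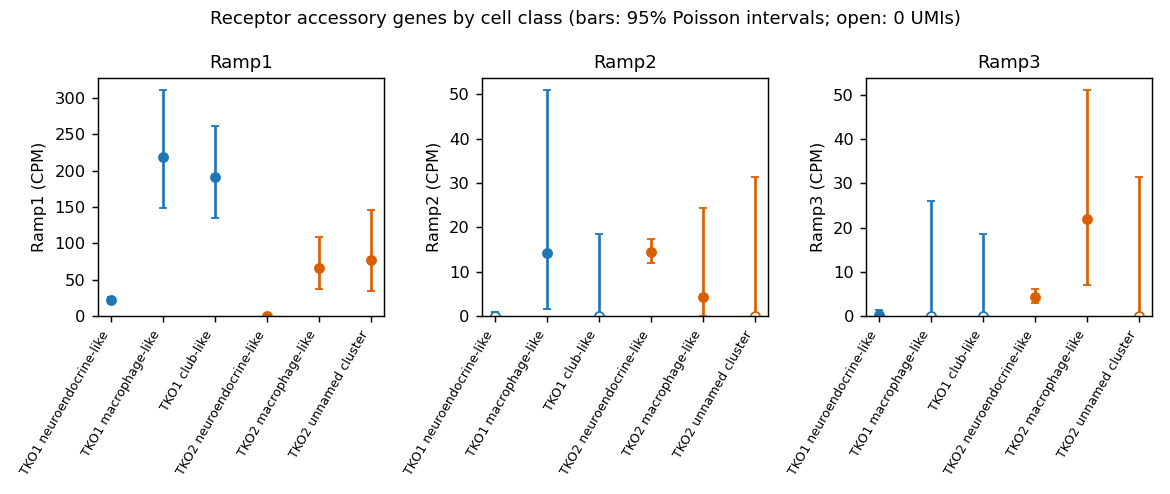
Ramp1, Ramp2 and Ramp3 levels (CPM, linear axes from 0) by cell class in TKO1 (blue) and TKO2 (orange), with 95% Poisson intervals as bars and open points for 0 UMIs. Ramp1 is at 219 CPM in the macrophage-like and 191 CPM in the club-like cells of TKO1. Ramp2 reaches 14.4 CPM in TKO2 neuroendocrine-like cells with 0 UMIs in those of TKO1, where the macrophage-like point is 1 barcode with endothelial markers.

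Ramp2 and Ramp3, the partners that turn Calcrl toward adrenomedullin, had the opposite direction. Among neuroendocrine-like cells, Ramp2 was at 0 UMIs in TKO1 and at 112 UMIs in 87 cells in TKO2, 14.4 CPM (11.9 to 17.4). That was 20.3-fold higher when 3 UMIs are set for the 0, and the lower limit of the exact interval was 16.3-fold. Of the 112 UMIs, 59 (52.7%) came from 45 of the 299 cells of cluster 6, at 70.3 CPM (53.5 to 90.6), a log2 ratio of 3.20 (2.64 to 3.76) to the other clusters. Cluster 6 was led by Sox9, a progenitor transcription factor gene, and by the matrix genes Spp1 and Sparc. Without it the Ramp2 level was 7.66 CPM (5.74 to 10.0). In TKO1, both Ramp2 UMIs were in 1 barcode that clustered with the macrophage-like cells but held 5 endothelial and 0 macrophage markers, the only TKO1 barcode with 3 or more endothelial markers. Ramp2 overlaps Vps25 on the same strand in the annotation, which makes its counts uncertain.

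Ramp3 was counted once in TKO1 neuroendocrine-like cells, with 1 UMI, and in TKO2 it had 34 UMIs in 31 cells, 4.38 CPM (3.03 to 6.12), a ratio of 18.5 (3.11 to 753) toward TKO2. No TKO2 cluster stood apart, with levels from 1.19 to 7.82 CPM. In the macrophage-like cells of TKO2 it had 5 UMIs in 3 cells, 21.9 CPM (7.12 to 51.2). Ramp3 overlaps an annotated gene on the other strand, as does Iapp.

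Around the members, the list of 20 pathway genes held other ligands, precursor-processing enzymes, other receptor proteins, signalling genes and peptidases. Of these, 17 had 10 UMIs or more, 4 were past 4-fold toward TKO1 (Pcsk1, Pcsk2, Pam and Arrb1) and 0 toward TKO2, against 14.5% and 4.82% of all genes, and the median log2 ratio was 0.74 over the 17 and 0.37 over all genes. Past 4-fold were 3 of 5 processing genes. Pcsk1 was at 168 CPM in TKO1 and 8.51 CPM in TKO2, a log2 ratio of 4.30 (3.94 to 4.69). Pam was at 279 and 18.2 CPM, a log2 ratio of 3.94 (3.69 to 4.20). Pcsk2, the second prohormone convertase, was at 78.6 and 7.99 CPM, a log2 ratio of 3.30 (2.90 to 3.71). The other processing genes were within 4-fold, with log2 ratios of 0.62 for the carboxypeptidase gene Cpe and 1.35 for Scg5, the chaperone of Pcsk2.

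Across the TKO1 clusters these enzymes had their highest level in the cluster where Calca was highest. Pcsk1 (297 CPM), Pcsk2 (116 CPM), Pam (400 CPM), Cpe (556 CPM) and Scg5 (558 CPM) were all highest in cluster 3, and 4 of the 5, all but Pcsk2, were lowest in the mitotic cluster 5, where Calca was lowest too. In TKO2 the same 5 genes were highest in cluster 3 of that library. Clusters were built from genes that include these enzymes, so this is a description.

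Among the ligands of the receptors, Adm, the adrenomedullin gene, was at 27.2 CPM (22.5 to 32.7) in TKO1 and 9.67 CPM (7.60 to 12.1) in TKO2, a log2 ratio of 1.49 (1.06 to 1.93). In TKO1, 68 of its 115 UMIs were in cluster 2, at 74.2 CPM. The leading genes of that cluster were mixed. They included Ndrg1 and Stc2, genes known to respond to cell stress and low oxygen, and Adm itself. Cfap126, a ciliated cell marker, was also among them, and the cluster held 2 ciliated markers. Adm2 had 10 and 11 UMIs. Of the 8 downstream signalling genes, 7 were within 4-fold, the highest of these being Pde4d at 1.79 (1.285 to 2.309). Relative to the median gene, the intervals of 5 of the 8 lay above it and those of 2 below it. Intervals of well-counted genes are narrow. The share of all genes with such intervals was not counted, so this is a description only. Of the 8, 1 was past 4-fold, Arrb1 (beta-arrestin 1, 46 and 7 UMIs), with a log2 ratio of 3.59 (2.44 to 4.99), while Gnas, which encodes the stimulatory G protein subunit of these receptors, was at 0.73, and Prkaca and Creb1, the kinase and transcription factor of the cAMP pathway, were at 0.12 and 0.11. Crcp, the CGRP receptor component gene, was at -0.77 (-1.07 to -0.47) and Ide, which encodes an enzyme that degrades amylin, at -1.02 (-1.40 to -0.65). Mme, the neprilysin gene, had 0 UMIs in both groups.

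**Figure D5:**
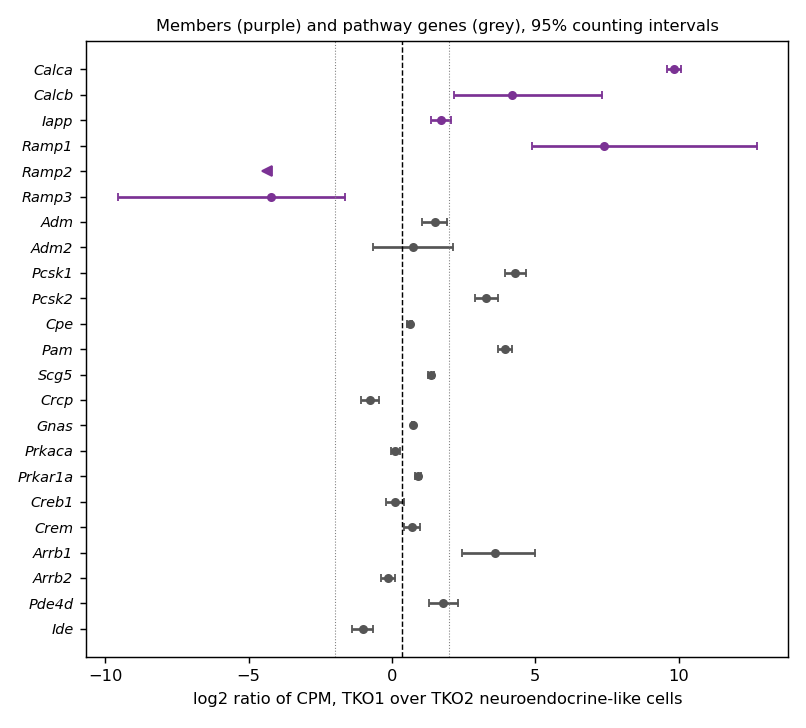
Log2 ratio of CPM between TKO1 and TKO2 neuroendocrine-like cells (x axis) for the members (purple) and pathway genes (grey) with at least 10 UMIs, with 95% counting intervals as bars. The dashed line is the median gene at 0.37, dotted lines are 4-fold either way, and the triangle marks Ramp2, whose value is a limit because TKO1 had 0 UMIs; Calca lies at 9.83 and Pcsk1 at 4.30.

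On chromosome 7 (GRCm38), Calca lies from 114631478 to 114636357 on the minus strand and Calcb from 114718643 to 114723365 on the plus strand. Genes within 300 kb that had 10 UMIs or more were Pde3b, 4933406I18Rik and Insc. All 3 were higher in TKO1, as was the median of the 12925 genes, at 0.37. The gene 4933406I18Rik reached 10 UMIs only through TKO1. Pde3b, a phosphodiesterase gene on the Cyp2r1 side of Calca, had 292 and 193 UMIs, a log2 ratio of 1.47 (1.21 to 1.74). Insc, an adaptor gene of spindle orientation next to Calcb, had 55 and 24 UMIs, a log2 ratio of 2.07 (1.36 to 2.83), and the gene 4933406I18Rik had 24 and 2 UMIs, a log2 ratio of 4.46 (2.45 to 7.59). Cyp2r1, the nearest gene to Calca on its other side, had 0 UMIs in both. The ratio of Calca exceeded that of each neighbour.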

How the data were processed

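Single-cell suspensions of 1 tumor per library were sequenced by the authors on the 10x Chromium system, and the whole-number UMI counts per gene and barcode were deposited by the authors without normalization. The submitters' processing notes name Cell Ranger, Seurat and mm10, and versions are not given in the sources used here. The members and gene lists were chosen with earlier results of these data known. The named genes are the members, 20 pathway genes, cell type markers, genes that differ between libraries (Mycn, Wfdc2) or by sex, the 5 genes most correlated with Calca in each library and the neighbours of Calca and Calcb. The leading genes of clusters and of the TKO1 ranking were named after their values were seen.

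Barcodes with more than 500 detected genes were retained (all held under 10% mitochondrial UMIs). Each library was clustered with Seurat 5.3.0 (genes in 10 cells or more, scaling to 10000, 1000 variable genes without the members, 10 components, resolution 0.8). Non-neuroendocrine names needed 3 markers at least 4-fold over the other cells, and neuroendocrine-like needed 3 of 14 at least 2-fold over macrophage-like cells. Doublets were kept. Scrublet (scanpy 1.11.5) called 0 cells, so an alternative removed scores over the 95th percentile. UMIs were summed per class to CPM with exact Poisson intervals, and ratios have exact conditional binomial intervals (scipy 1.17.1). In ratios, and where so stated, 3 UMIs were set for a count of 0. Shares used cells thinned to 1000 UMIs (seed 1). TMM factors came from edgeR 4.0.16. Because each tumor has 1 library, no significance test was run. The code for ratios and intervals was checked beforehand on simulated counts with known folds. Positions came from GENCODE M21.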

Additional observations from a re-analysis of the deposited data

Results flagged for a closer look

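Outside an alternative that took in those with more than 200 genes, barcodes with 500 or fewer detected genes entered no comparison, yet held Calca. In TKO1 the 1321 such barcodes had 10557 Calca UMIs, 14700 CPM (14420 to 14980), which is 86.7% of the level in neuroendocrine-like cells. In TKO2 the 248 such barcodes had 59 Calca UMIs, 317 CPM (241 to 409), above the 18.7 CPM of neuroendocrine-like cells and the 74.5 CPM of macrophage-like cells. Whether these barcodes were cells was not tested.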

How the results depend on the processing

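Of the 82 alternatives, 62 gave values within the main interval, or within 1.5 times for counts. Only a log2 ratio could reverse in sign, and none of those of Calca, Calcb, Ramp1 and Iapp did. The ratios of Ramp2 and Ramp3 were given no alternative, and shares, levels and counts could only stay or move. Values that moved are as follows. The log2 ratio of Calca (9.83) was 9.54 with 2000 variable genes and 20 components, 7.71 over all retained barcodes and 9.45 with TMM factors, and, in alternatives chosen after seeing the data, 10.31 without the TKO2 barcodes with at least 3 Calca UMIs and 10.07 without TKO1 clusters 5 and 6. That of Ramp1 (7.40) was 3.52 over all retained barcodes, and that of Iapp (1.71) was 0.66 without TKO1 cluster 6. Ramp2 in TKO2 neuroendocrine-like cells (14.4 CPM) was 7.66 CPM without cluster 6. The share of TKO1 cells with Calca (96.5%) was 95.01% with more than 200 genes, 95.2% with at least 1000 UMIs, 95.1% at resolution 0.4, 95.3% with 2000 variable genes, 92.6% over all retained barcodes and 92.2% thinned to 500 UMIs. That of TKO2 (1.29%) was 2.42% over all retained barcodes and 2.40% thinned to 2000 UMIs. The 53 Calca barcodes of TKO2 became 11 within neuroendocrine-like clusters. Ramp2 in TKO2 macrophage-like cells (4.38 CPM, 1 UMI) was 0 CPM in barcodes chosen by markers. Genes past 4-fold (1870 toward TKO1 and 623 toward TKO2) were 1067 and 377 with at least 50 UMIs and 1448 and 838 with TMM factors, which lowered the TKO1 side from 75.01% to 63.3% of these genes. Thinning draws UMIs at random, so each such value is also a new draw. No paired analysis was possible because each group has 1 library. With 1 tumor each, tumor, animal and library cannot be told apart, and the depth limits Calcb, Calcr, Ramp3 and every value in non-tumor cells.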
